A study of Mus musculus with 96 samples.

Results

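The first 4 h after lights on were examined in the epidermis of 4 mouse genotypes, as the difference between zeitgeber time 4 (ZT4, 4 h into the light) and ZT0 (lights on). All libraries labelled ZT0 or ZT4 were taken, which gave 32 of the 96 libraries of the series, with 4 mice in each of 8 groups. Poly(A) RNA was taken from dispase-separated epidermal cells of dorsal skin. The mice were males of strain C57BL/6, 8 weeks old, kept at 12 h light and 12 h dark with food always available. The WT mice were Arntl wt/wt and carried both Cre drivers (K14Cre wt/tg, Syt10-Cre tg/wt). The other genotypes were Arntl stopFL/stopFL, in which a stop cassette blocks Arntl, which encodes the clock activator BMAL1, until Cre removes it. RERE mice carried K14Cre tg/wt and Syt10-Cre tg/wt and are labelled as reconstituted in brain and epidermis. EpiRE mice carried K14Cre tg/wt with Syt10-Cre wt/wt and are labelled as reconstituted in the epidermis. BRE mice carried Syt10-Cre tg/wt with K14Cre wt/wt and are labelled as reconstituted in the brain. The Keratin 14 promoter is active in basal keratinocytes and other stratified epithelia, and Syt10-Cre in the brain's central clock among other neurons, and in tissues where the driver they carry is not active the RERE, EpiRE and BRE mice keep the stop cassette. Gene-level reads do not show whether an Arntl transcript still holds the stop cassette, so Arntl levels do not check these labels. Light, hour of day, feeding and sleep change together over this interval and cannot be told apart.

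The circadian clock is a loop of transcription factors present in most cells. BMAL1 pairs with CLOCK or NPAS2 and switches on, through E-box sequences, the Period and Cryptochrome repressors, the REV-ERB receptors (Nr1d1, Nr1d2) and the PAR bZIP factors (Dbp, Tef, Hlf), which in turn act through D-boxes and REV-ERB elements. In the epidermis this clock runs in keratinocytes, is set by the brain's central clock and by feeding, and is known for its link to the daily timing of keratinocyte division and metabolism.

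The libraries carried the markers of epidermis. The summed level of 12 basal keratinocyte genes lay between 11600 and 17000 RPKM (reads normalised for transcript length and library size) in the 32 libraries, and that of 31 differentiation genes between 8940 and 19000 RPKM. All 8 endothelial markers together reached at most 1.67 RPKM, all 8 adipocyte markers 2.23 RPKM and 9 fibroblast markers 38.1 RPKM. Langerhans and dendritic cell markers summed to 95.1 to 209 RPKM and T cell markers to 41.6 to 102 RPKM, with overlapping ranges at ZT0 and ZT4. Fos, an immediate early gene, was at 1070 to 3210 RPKM in every one of the 32 libraries. Estimated depth was 12220000 to 32360000 reads per library, with a median of 17950000 reads. Levels are tested within a genotype only, since each genotype's table was normalized apart. Where levels of genotypes stand side by side below, they were not tested against each other and can hold an offset between tables.

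In WT and RERE mice, Dbp, Nr1d1, Nr1d2 and Tef rose and Cry1 fell over the 4 h, and these 5 clock genes kept their calls whichever library of the genotype was left out. In WT 1.85% of all 11705 tested genes were called, and in RERE 0.0598%. An E-box and a pair of D-boxes are shown in the sequences below because Cry1 fell and Per3 rose in WT over the same 4 h. The letters CACGTG (the E-box, which reads the same on both strands) occur in 6.02% of 32851 windows of 250 bases upstream of a RefSeq start (build GRCm38.p6). The letters TTATGTAA or TTACATAA (the D-box on either strand) occur in 0.819% of these windows. Of the 18 tested genes of the clock lists, 15 had a window: 4 held the E-box (Ciart, Cry1, Per1, Tef) and 1 held the D-box (Per3, with 2 copies), and no E-box overlapped a D-box. The windows are given 5′ to 3′ on the gene's strand, with the motif in capitals, for Cry1 (chr10:85185065-85185304, minus strand) and Per3 (chr4:151044666-151044915, minus strand). RefSeq and GENCODE starts can differ: the last 10 bases of the Cry1 window lie in a GENCODE exon and are left out, and the Tef window, which holds an E-box by its RefSeq start, lies wholly in a GENCODE exon and is not shown. A match of letters is a description of the sequence, not a measured binding site.
Cry1: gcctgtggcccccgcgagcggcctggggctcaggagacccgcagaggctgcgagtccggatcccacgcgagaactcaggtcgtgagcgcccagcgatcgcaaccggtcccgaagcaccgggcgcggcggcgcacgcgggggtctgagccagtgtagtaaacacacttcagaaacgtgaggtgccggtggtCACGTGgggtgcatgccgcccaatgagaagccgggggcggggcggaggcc
Per3: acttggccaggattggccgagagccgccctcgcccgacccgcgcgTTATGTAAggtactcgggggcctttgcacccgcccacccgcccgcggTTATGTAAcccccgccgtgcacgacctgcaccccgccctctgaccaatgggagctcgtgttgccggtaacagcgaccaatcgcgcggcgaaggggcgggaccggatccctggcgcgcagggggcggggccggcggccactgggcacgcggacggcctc

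Dbp (ENSMUSG00000059824, mm10 chr7:45705088-45710203), a PAR bZIP activator at D-boxes, gave the widest step of the clock genes. In WT mice it read 2.35, 2.15, 1.83 and 2.07 RPKM at ZT0 and 21.6, 31.1, 9.82 and 22.9 RPKM at ZT4. In RERE mice it read 2.8, 1.66, 1.39 and 1.73 RPKM at ZT0 and 16.4, 30.1, 13.7 and 15.1 RPKM at ZT4. The groups did not overlap in either genotype, as was so for 11.5% of all tested genes in WT and 3.43% in RERE. The step, defined throughout as the ZT4 mean minus the ZT0 mean in log2 RPKM, was 3.24 ± 0.30 (SE, n = 4 and 4) in WT, a 9.42-fold rise (limma adjusted p = 2.14e-06), and 3.29 ± 0.24 in RERE, a 9.78-fold rise (limma adjusted p = 6.79e-08). In EpiRE mice Dbp was already at 40.6, 8.53, 19.8 and 17.7 RPKM at ZT0 and read 17, 23.5, 34.8 and 26.2 RPKM at ZT4, with overlapping groups and no call (0.40 ± 0.52, limma adjusted p = 0.897). In BRE mice it stayed between 2.74 and 5.49 RPKM in all 8 mice (0.35 ± 0.16, limma adjusted p = 0.618). The step of BRE was smaller than that of WT by 2.88 ± 0.35 log2 units (difference -2.88, limma adjusted p = 2.57e-06), while the EpiRE difference from WT, -2.84 ± 0.62, missed the threshold (limma adjusted p = 0.144).

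Nr1d1 (ENSMUSG00000020889, mm10 chr11:98767932-98775333) encodes REV-ERBα, a repressor of Arntl, Npas2 and Cry1. In WT mice it read 24.2, 22.3, 32.9 and 25.3 RPKM at ZT0 and 106, 123, 86.9 and 97.7 RPKM at ZT4. In RERE mice it read 34.7, 15.7, 20.6 and 15.2 RPKM, then 83.5, 96.5, 89 and 74.2 RPKM. All ZT4 mice of both genotypes lay above all their ZT0 mice, with rises of 3.96-fold in WT (1.99 ± 0.13, limma adjusted p = 3.31e-09) and 4.21-fold in RERE (2.07 ± 0.19, limma adjusted p = 1.98e-06). EpiRE mice read 91.4, 38.9, 74.5 and 62 RPKM at ZT0 and 39.3, 59.1, 67.1 and 43.4 RPKM at ZT4, without a call (-0.32 ± 0.33, limma adjusted p = 0.859). BRE mice read 3.58, 3.98, 4.27 and 3.88 RPKM, then 3.62, 3.5, 5.02 and 3.61 RPKM, the lowest Nr1d1 readings of the 32 libraries and a flat step (-0.01 ± 0.13, limma adjusted p = 0.99). The step differed from WT in EpiRE by -2.31 ± 0.37 (limma adjusted p = 0.00139) and in BRE by -2.0 ± 0.18 (limma adjusted p = 1.91e-09). It also differed between RERE and EpiRE by 2.39 ± 0.40 (limma adjusted p = 0.00386) and between RERE and BRE by 2.08 ± 0.24 (limma adjusted p = 4.04e-07).

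Nr1d2 (ENSMUSG00000021775, mm10 chr14:18204054-18239127), which encodes the related receptor REV-ERBβ, moved with Nr1d1 at a smaller size. WT mice read 12.2, 9.98, 13.6 and 11 RPKM at ZT0 and 32.6, 28.1, 22.4 and 26.6 RPKM at ZT4, a 2.34-fold rise (limma adjusted p = 7.8e-05), and RERE rose 2.28-fold (limma adjusted p = 0.000612). EpiRE mice lay between 16.2 and 30.8 RPKM at ZT0 and between 23.3 and 25.6 RPKM at ZT4, and BRE mice at 2.48 to 3.21 and 3.21 to 3.78 RPKM. Tef (ENSMUSG00000022389, mm10 chr15:81802421-81826863), a PAR bZIP relative of Dbp, read 10.4, 8.39, 7.33 and 7.73 RPKM, then 23.4, 25.8, 14.4 and 20.8 RPKM in WT, a 2.46-fold rise (limma adjusted p = 1.24e-05). RERE Tef rose 2.19-fold (limma adjusted p = 0.000612), and BRE Tef stayed at 16.3 to 18.8 RPKM in all 8 mice. The BRE difference from WT was -1.32 ± 0.16 for Tef (limma adjusted p = 2.72e-06) and -0.94 ± 0.24 for Nr1d2 (limma adjusted p = 0.0702), so only the first passed.

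Cry1 (ENSMUSG00000020038, mm10 chr10:85131700-85185064), a Cryptochrome repressor of the clock loop and the clock gene that fell most, read 9.49, 12.3, 8.93 and 11.4 RPKM at ZT0 and 4.34, 2.54, 4.58 and 3.98 RPKM at ZT4 in WT mice. RERE mice read 11.4, 12.9, 11.9 and 9.7 RPKM, then 5.3, 4.1, 4.59 and 5.09 RPKM. The falls were 2.77-fold in WT (-1.47 ± 0.16, limma adjusted p = 1.25e-05) and 2.4-fold in RERE (-1.26 ± 0.13, limma adjusted p = 1.65e-05), with no overlap of groups. EpiRE Cry1 read 8.29, 11.9, 7.75 and 7.83 RPKM, then 14.7, 10.3, 9.4 and 10.8 RPKM, a step of the opposite sign without a call (0.34 ± 0.23). BRE Cry1 read 40.8, 41.3, 44 and 44.1 RPKM, then 36.7, 34.2, 35.7 and 38.3 RPKM, the highest Cry1 readings of the 32 libraries and a small step (-0.23 ± 0.07, limma adjusted p = 0.42). Its groups in BRE did not overlap, as was so for 4.96% of all tested genes there. The step differed from WT by 1.81 ± 0.28 in EpiRE (limma adjusted p = 0.00139) and by 1.24 ± 0.18 in BRE (limma adjusted p = 6.63e-05), and in RERE it differed from EpiRE by -1.60 ± 0.27 and from BRE by -1.03 ± 0.16 (limma adjusted p = 0.00386 and 0.000257).

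**Figure D1:**
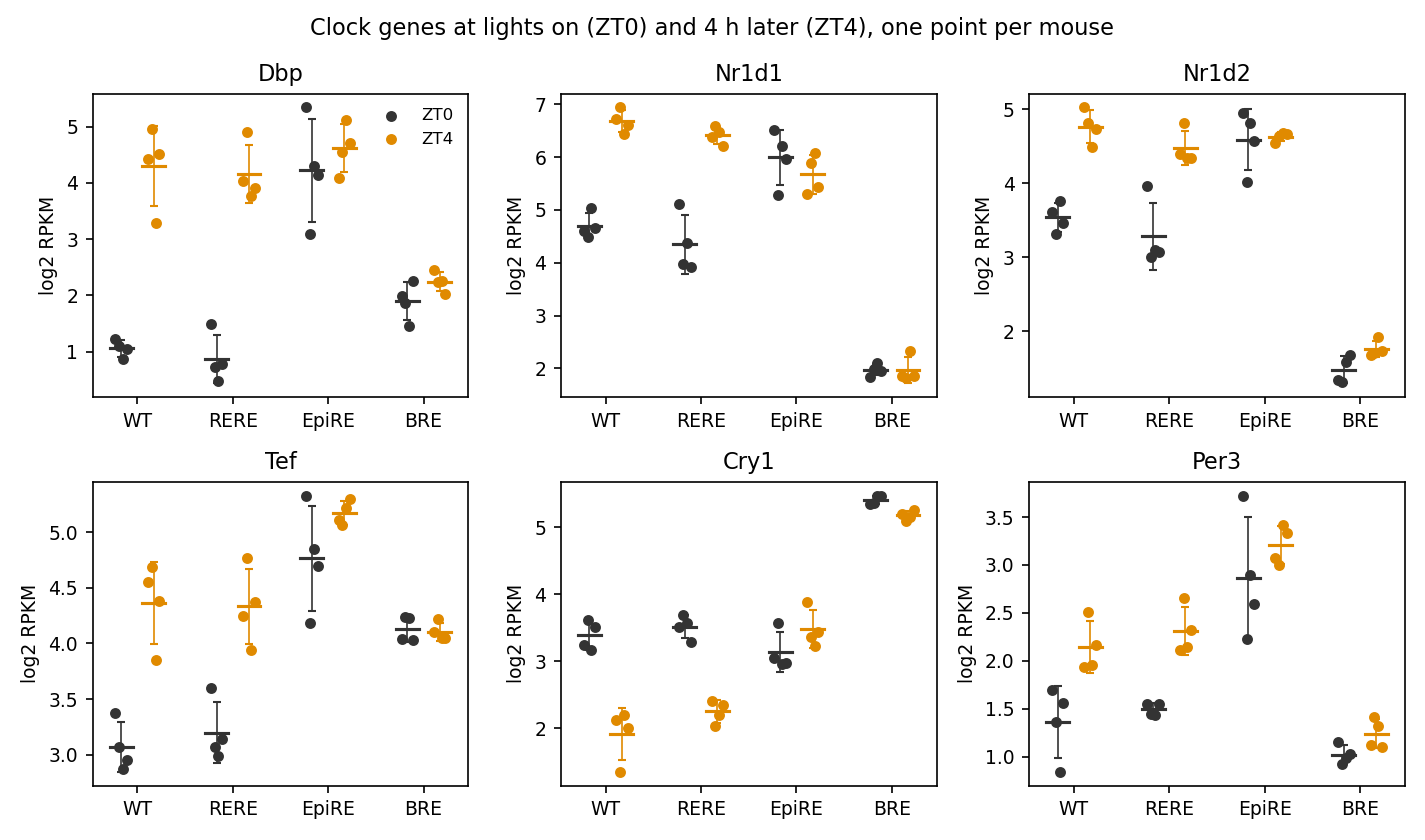
Levels of 6 clock genes in log2 RPKM (y axis) at ZT0 (dark) and ZT4 (orange) in the 4 genotypes (x axis); points are mice, horizontal lines group means, and bars 1 SD (n = 4). Dbp, Nr1d1, Nr1d2 and Tef rose and Cry1 fell in WT and RERE, while BRE groups are nearly flat. EpiRE mice scatter more widely than WT mice at ZT0.

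The remaining members of the loop changed less. Among 6 Period and Cryptochrome repressors, 3 rose in WT (Per3, Cry2, Ciart) and 1 fell (Cry1), against 0.991% of all 11705 tested genes called higher and 0.854% called lower in WT. Per3 (ENSMUSG00000028957, mm10 chr4:151003652-151044665), whose D-boxes are shown above, read 3.23, 2.57, 1.79 and 2.95 RPKM, then 3.82, 5.71, 3.88 and 4.48 RPKM in WT, a 1.71-fold rise (limma adjusted p = 0.0194). Its RERE step was 0.81 ± 0.18 and missed the threshold (limma adjusted p = 0.125). Cry2 rose 1.39-fold and Ciart, a repressor of BMAL1, 1.95-fold in WT (limma adjusted p = 0.0194 and 0.0464). Per1 and Per2, which respond to hormonal and other acute signals as well as to the clock, were called in no genotype. Per1 read 13.6 to 34.7 RPKM at ZT0 and 17.1 to 51.4 RPKM at ZT4 in WT. Per2 separated the ZT0 and ZT4 mice only in BRE, where it read 5.67, 6.75, 5.95 and 6.09 RPKM, then 3.23, 3.19, 2.99 and 4.41 RPKM (-0.84 ± 0.31, limma adjusted p = 0.505). In BRE 4.96% of all tested genes had separate groups.

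Of the 3 clock activators, none was called in a single genotype, and all 3 had negative steps in WT and RERE. Arntl read 22.9, 23.3, 27.4 and 21.1 RPKM, then 15.1, 15.7, 20.7 and 18 RPKM in WT (-0.45 ± 0.12, limma adjusted p = 0.0564). RERE Arntl read 26.5, 22.7, 21.3 and 23.8 RPKM, then 17.4, 15.5, 19 and 18.4 RPKM (-0.43 ± 0.13, limma adjusted p = 0.59). Both pairs of groups are separate, as they were for 11.5% of all tested genes in WT and 3.43% in RERE. The average step over the 4 genotypes was lower for Arntl (-0.25 ± 0.07, limma adjusted p = 0.0105) and Npas2 (-0.36 ± 0.11, limma adjusted p = 0.0412), with EpiRE and BRE steps between -0.08 and 0.17. Clock, Rora, Hlf, Nfil3 and Bhlhe40 were called in no step, and Bhlhe41 was below the level tested.

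Steps of single genes were then compared between genotypes. The EpiRE minus WT difference was called for 2 genes (0.0171%), Nr1d1 (negative) and Cry1 (positive; 0.00854% each), the RERE minus EpiRE difference for 3 (0.0256%), with Nr1d1 positive (0.00854%) and Cry1 among the negative ones (0.0171%), and the RERE minus BRE difference for 4 (0.0342%), Nr1d1, Dbp and Tef (positive, 0.0256%) and Cry1 (negative, 0.00854%). A test over all 4 genotypes at once called 6 genes (0.0513%), among them Nr1d1, Cry1, Dbp, Tef and Nr1d2. With median-of-ratios scaling the RERE minus EpiRE calls went from 1 positive and 2 negative to 2 and 2, and the RERE minus BRE calls from 4 to 7. No gene's step was called different between RERE and WT (0 of 11705, limma adjusted p below 0.05, with 530 at an unadjusted p below 0.05). This does not show that the steps are equal. The 95% interval of the RERE minus WT difference ran from -0.76 to 0.86 for Dbp, from -0.39 to 0.56 for Nr1d1, from -0.59 to 0.27 for Tef and from -0.22 to 0.64 for Cry1, in log2 units. Between EpiRE and BRE, in which no clock gene was called, 0 steps were called different as well, with 513 at an unadjusted p below 0.05. Both 530 and 513 are under 0.05 of the tested genes, the share that chance alone gives at this unadjusted threshold.

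The uncalled clock steps of EpiRE and BRE came with different readings. In BRE, Nr1d1 (3.5 to 5.02 RPKM) and Nr1d2 (2.48 to 3.78 RPKM) lay below every WT reading (22.3 to 123 and 9.98 to 32.6 RPKM), and Cry1 (34.2 to 44.1 RPKM) above every WT reading (2.54 to 12.3 RPKM). Tef and Per3 in BRE lay inside the WT range. BRE Dbp (2.74 to 5.49 RPKM) lay above every WT reading at ZT0 (1.83 to 2.35 RPKM) and below every WT reading at ZT4 (9.82 to 31.1 RPKM). In EpiRE, Nr1d1 (38.9 to 91.4 RPKM) lay inside the WT range of both times together. At ZT0 it lay above every WT reading (22.3 to 32.9 RPKM), and at ZT4 below every WT reading (86.9 to 123 RPKM). EpiRE Per2 (2.06 to 6.84 RPKM) lay above every WT reading (0.253 to 0.795 RPKM). BRE Per2 (2.99 to 6.75 RPKM) lay above every WT reading too. Per3 and Tef in EpiRE reached 13.2 and 40.1 RPKM, against at most 5.71 and 25.8 RPKM in WT. EpiRE replicate 1 at ZT0 had the highest ZT0 readings of Dbp, Nr1d1, Tef and Per3 (40.6, 91.4, 40.1 and 13.2 RPKM) and the lowest of Arntl and Npas2 (13.8 and 3.35 RPKM) within its group, while replicate 2 had the lowest Dbp, Nr1d1, Tef and Per3 (8.53, 38.9, 18.2 and 4.69 RPKM) and the highest Arntl (18.5 RPKM) and Cry1 (11.9 RPKM). Over all 6 times of day, the SD between mice of the same time, in log2 units, had a median over the 18 clock genes of 0.444 in EpiRE, 0.23 in WT, 0.256 in RERE and 0.211 in BRE. It was higher than in WT for 15 of the 18 genes in EpiRE and also for 15 in RERE, and higher in EpiRE than in RERE for 14. For Nr1d1 it was 0.513 in EpiRE, 0.291 in RERE and 0.189 in WT. The 18 genes share their libraries, and the spread was not tested.

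Across all tested genes, WT had the most calls in this interval. In WT mice 216 of 11705 genes were called (1.85%), 116 higher and 100 lower. In RERE 7 were called (0.0598%): Dbp, Nr1d1, Nr1d2 and Tef rose, and Cry1, Atp1b1 and Ttc9 fell, against 6 higher and 2 lower with median-of-ratios scaling. In EpiRE and BRE limma called 0 genes, with 829 and 930 at an unadjusted p below 0.05, against 2024 in WT and 524 in RERE. The RERE count is under 0.05 of the tested genes, the share that chance alone gives. The WT count rested on single mice: it was 17 without WT ZT0 replicate 2 and 23 without WT ZT4 replicate 1, and 16 of the 216 genes kept their call whichever of the 8 libraries was left out. Those 16 were Dbp, Nr1d1, Nr1d2, Tef, Cry1, Sectm1a, Sectm1b, Slc6a6, Dst, Pfkl, Acpp, Chdh, Eci2, Eci3, Gfer and Zc3h7b. In RERE the 5 clock genes kept theirs, Atp1b1 and Ttc9 did not.

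**Figure D2:**
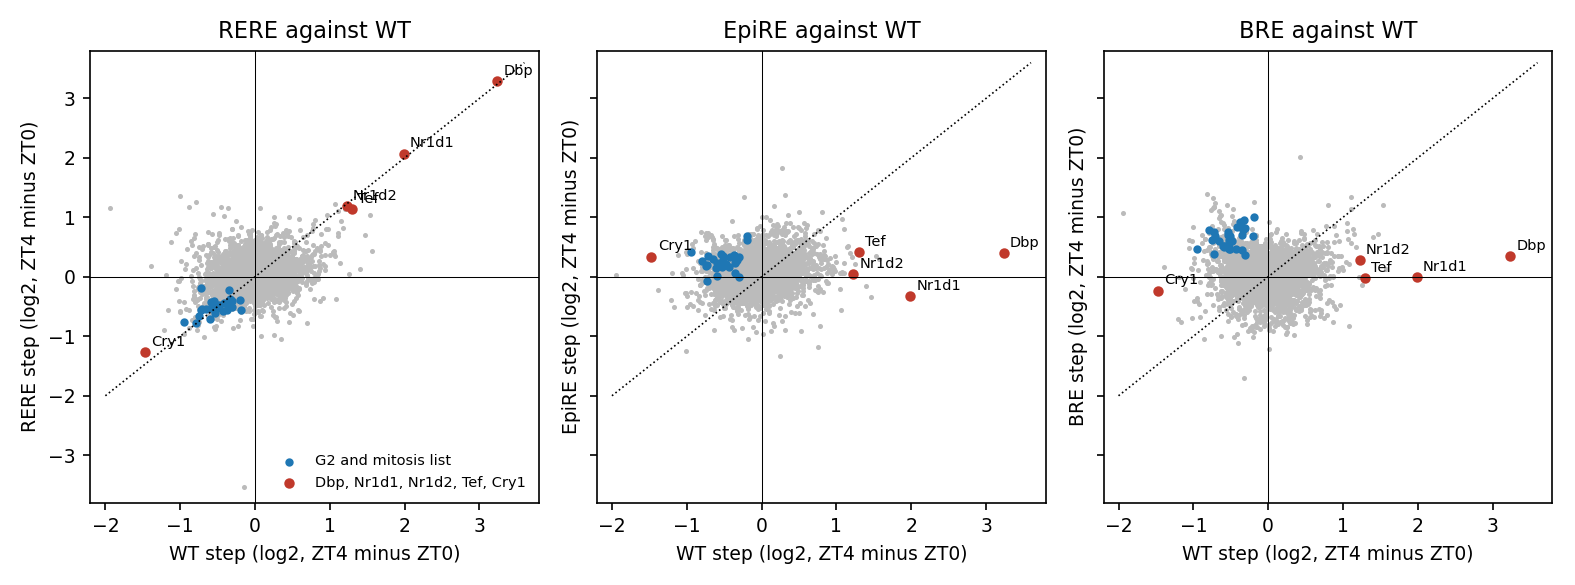
Step from ZT0 to ZT4 (log2) in RERE, EpiRE and BRE (y axes) against the WT step (x axis), 1 point per tested gene (n = 11705), with equal steps on the dotted line. Clock genes (red) lie close to the line in RERE and near 0 on the y axis in EpiRE and BRE; the 30 mitotic genes (blue) lie below 0 in RERE and above 0 in BRE, while their WT steps are all below 0.

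Outside the clock, called WT rises were ranked among genes with a mean level of at least 10 RPKM in WT. They were led by Slc6a6, the taurine transporter, Ngfr, a neurotrophin receptor found on epidermal and nerve cells, and Sectm1a. Pik3ip1, an inhibitor of phosphoinositide 3-kinase, Lgals9, which encodes galectin-9, and Papln were also among them. Slc6a6 read 45.6, 39.1, 52.1 and 43.2 RPKM at ZT0 and 107, 85.6, 77.3 and 90.1 RPKM at ZT4, a 2-fold rise (limma adjusted p = 0.00263). Sectm1b, a member of the Sectm1 family at a lower level, read 2.83, 2.59, 2.03 and 2.41 RPKM, then 9.66, 5.5, 7.47 and 6.98 RPKM, a 2.97-fold rise in WT (limma adjusted p = 1.24e-05). Its BRE groups overlapped, and the BRE step differed from that of WT by -1.43 ± 0.29 (limma adjusted p = 0.0305). Sectm1a and Sectm1b are close paralogs, so reads could be split between them. In the fasting and fatty acid oxidation list 1 of 16 genes rose in WT (0.991% of all tested genes did), Cpt1a, the carnitine acyltransferase of mitochondrial fatty acid import (1.33-fold, limma adjusted p = 0.0201). In the list of FOXO and insulin-repressed genes 2 of 15 rose, Pik3ip1 and Fbxo32, beside the same 0.991%.

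Called WT falls were likewise ranked among genes with a mean level of at least 10 RPKM in WT. They were led by Cry1, Tppp3, which encodes a tubulin-binding protein, and Hsph1, Sdf2l1 and Creld2, which belong to the chaperone lists. Atp1b1, the beta subunit of the sodium pump, Top2a, Stip1 and Manf were also among them. Of all 100 called WT falls, only 2 (Cry1 and Pfkl) kept their call whichever library was left out. Atp1b1 (ENSMUSG00000026576, mm10 chr1:164437109-164458355) read 27, 29, 42.1 and 22.3 RPKM, then 19.8, 13.6, 10 and 19.8 RPKM in WT, and 26.6, 27.3, 20.7 and 23.3 RPKM, then 10.8, 15.4, 11.5 and 12.6 RPKM in RERE. It fell 1.93-fold in WT and 1.95-fold in RERE (limma adjusted p = 0.0445 and 0.0171). EpiRE and BRE steps were -0.26 ± 0.24 and -0.42 ± 0.18 without a call, and no difference between genotypes was called for it. In glycolysis 2 of 18 genes fell in WT (0.854% of all tested genes did), Pfkl and Pgam1, by 0.60 and 0.44 log2 units (steps -0.60 and -0.44, limma adjusted p = 0.00184 and 0.0194).

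The steps were then set side by side over genes. Of the 216 genes called in WT, 90.7% had the same sign in RERE, 81.9% in EpiRE and 75.5% in BRE, against 60.8%, 66.2% and 58.7% of all tested genes. The median ratio of the step to that of WT was 0.313, 0.29 and 0.246 for these genes, which were chosen on the WT values. Over all 11705 genes Pearson's r between the WT step and another genotype's step was 0.305 for RERE, 0.278 for EpiRE and 0.061 for BRE, and Spearman's rho 0.283, 0.379 and 0.173, so that the order of RERE and EpiRE depends on the measure; genes of one library are not independent, so these are descriptions. Averaging the 4 steps gave 811 called genes (6.93%), 341 higher (2.91%) and 470 lower (4.02%), of which 748 had the same sign in all 4 genotypes, a count that choosing genes on the average of the same 4 steps largely fixes. Of the 811, 452 kept their call whichever of the 32 libraries was left out, 17.5% were also called in WT, and 65.7% of the WT calls were among them. No gene was called in all 4 genotypes or in 3, so the genes named below for the average step were chosen either from the gene lists or after their values were seen.

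Molecular chaperones were lower at ZT4 on average over the 4 genotypes. In this average, 4.02% of all tested genes were called lower and 2.91% higher. Of 17 heat shock chaperones, which fold cytosolic and mitochondrial proteins, 8 fell in the average step and none rose (median step of the list -0.16, against -0.003 over all tested genes). Of 23 genes for chaperones and stress factors of the endoplasmic reticulum, which fold secreted and membrane proteins, 14 fell and none rose (median -0.20). The average steps of these 22 genes ran from -0.75 to -0.17, and all 22 kept their call whichever library was left out. Over all tested members, called or not, 15, 13, 13 and 17 of the 17 heat shock genes had negative steps in WT, RERE, EpiRE and BRE, and 18, 22, 18 and 21 of the 23 endoplasmic reticulum genes, while 55%, 52.5%, 46.4% and 50.4% of all tested genes were negative. Genes of a list share their libraries, so these signs are not independent observations. In WT alone 5 genes of each list fell, against 0.854% of all tested genes. Unlike the calls of the average step, each of these WT calls was lost when some single library was left out. In RERE, EpiRE and BRE 0 of either list was called. For no member was a difference between any pair of genotypes called, although 6 of the 8 and 13 of the 14 were most negative in WT.

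The windows upstream of Creld2 and Hsp90b1 are shown because this group of genes is known for a composite element, ERSE, recognised under protein folding stress. The letters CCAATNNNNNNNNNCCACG, searched on both strands, occur in 37 of 32851 RefSeq windows of 250 bases (0.113%). Of 23 tested members of the endoplasmic reticulum list 21 had a window, and 7 held the element (Calr, Canx, Creld2, Dnajc3, Hsp90b1, Hspa5, Pdia6), each of which fell in the average step. In that step 14 of all 23 members fell, and 4.02% of all tested genes. The capitals mark the element in Creld2 (chr15:88819396-88819645, plus strand) and Hsp90b1 (chr10:86705510-86705694, minus strand, 2 copies, without 65 bases that lie in a GENCODE exon), in build GRCm38.p6, 5′ to 3′ on the gene's strand. No factor's binding was measured here.
Creld2: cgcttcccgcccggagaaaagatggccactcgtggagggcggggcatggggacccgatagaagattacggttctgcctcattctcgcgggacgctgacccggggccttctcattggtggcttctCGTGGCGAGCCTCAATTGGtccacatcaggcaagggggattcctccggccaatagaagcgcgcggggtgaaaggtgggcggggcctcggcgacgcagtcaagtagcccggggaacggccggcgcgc
Hsp90b1: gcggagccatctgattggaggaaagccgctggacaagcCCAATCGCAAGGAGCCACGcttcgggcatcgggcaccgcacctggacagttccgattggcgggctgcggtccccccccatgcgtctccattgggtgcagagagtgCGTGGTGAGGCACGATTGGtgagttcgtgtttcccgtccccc

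Hsph1 (ENSMUSG00000029657, mm10 chr5:149614287-149636376), an exchange factor of HSP70, had the most negative average step of both lists. It read 14.8, 20.5, 20.9 and 15.1 RPKM, then 6.05, 8.87, 7.95 and 8.8 RPKM in WT, and 13.5, 18, 14.7 and 12.2 RPKM, then 8.89, 7.62, 8.97 and 8.77 RPKM in BRE. In RERE it read 13.3, 19.5, 13.8 and 9.31 RPKM, then 10.1, 8.08, 9.95 and 8.54 RPKM, and in EpiRE 14.2, 17.7, 11.9 and 16.2 RPKM, then 11.5, 10.6, 12.1 and 8.14 RPKM. The ZT4 mice lay below all ZT0 mice in WT and BRE, and the groups overlapped in RERE and EpiRE. Groups were separate for 11.5% of all tested genes in WT and 4.96% in BRE. Steps were -1.17 ± 0.23, -0.57 ± 0.18, -0.50 ± 0.15 and -0.76 ± 0.15 in WT, RERE, EpiRE and BRE, and the average was -0.75 ± 0.09 (limma adjusted p = 5.67e-08). Only the WT step was called (limma adjusted p = 0.0152).

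Creld2 (ENSMUSG00000023272, mm10 chr15:88819646-88826683), an endoplasmic reticulum disulfide isomerase, read 17.5, 20.6, 21.3 and 16.8 RPKM, then 8.25, 11.4, 9.49 and 10.3 RPKM in WT, and fell 1.93-fold there (limma adjusted p = 0.0127). Its average step was -0.55 ± 0.09 (limma adjusted p = 9.89e-06), with -0.43 in RERE, -0.47 in EpiRE and -0.36 in BRE. Hsp90b1 (ENSMUSG00000020048, mm10 chr10:86690209-86705509), which encodes the HSP90 of the endoplasmic reticulum, was lower in all ZT4 mice than in all ZT0 mice of the same genotype, in each of the 4 genotypes; 4.6% of all tested genes were separate in EpiRE and 4.96% in BRE. It read 148, 164, 166 and 137 RPKM, then 89.4, 115, 105 and 107 RPKM in WT and 125, 148, 135 and 155 RPKM, then 118, 112, 112 and 112 RPKM in BRE, with 130 to 178 then 102 to 119 RPKM in RERE and 112 to 152 then 97.8 to 109 RPKM in EpiRE. The average step was -0.39 ± 0.06 (limma adjusted p = 1.97e-05). Hspa5 (ENSMUSG00000026864, mm10 chr2:34771970-34777547), the HSP70 of this compartment, had an average step of -0.45 ± 0.10 (limma adjusted p = 0.00159) but overlapping groups in every genotype, with ZT0 readings from 86.6 to 197 RPKM.

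Stip1, Ahsa1 and Fkbp4, which encode partners of cytosolic HSP90, fell on average by 0.39, 0.34 and 0.29 log2 units (average steps -0.39, -0.34 and -0.29, limma adjusted p = 3.42e-06, 3.42e-06 and 1.93e-05). Of the cold-inducible RNA-binding genes, 2 of 4 rose on average, against 2.91% of all tested genes. Cirbp rose by 0.53 ± 0.09 and Rbm3 by 0.29 ± 0.06 (limma adjusted p = 2.51e-05 and 0.002). Cirbp (ENSMUSG00000045193, mm10 chr10:80165985-80172786) read 53.1, 38.6, 34.2 and 45.4 RPKM, then 94, 69.4, 67.3 and 63.2 RPKM in WT, and 51.9, 41.2, 47.9 and 40.3 RPKM, then 72.2, 79.1, 62.3 and 59.2 RPKM in BRE. Its ZT4 mice lay above all ZT0 mice in WT and BRE (11.5% and 4.96% of all tested genes had separate groups there). The Cirbp groups overlapped in RERE and EpiRE. The 22 tested immediate early genes did not move one way: the ZT4 minus ZT0 difference of their mean log2 RPKM was 0.32 (WT), -0.11 (RERE), 0.26 (EpiRE) and -0.24 (BRE), with overlapping groups and 0 members called in any step. Within the ZT0 groups the mouse with the highest Hspa5 was also the one with the highest or next highest immediate early mean, for example RERE replicate 1 (183 RPKM, mean 7.9) and EpiRE replicate 2 (182 RPKM, mean 7.65); the part of this in the chaperone steps was not tested.

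**Figure D3:**
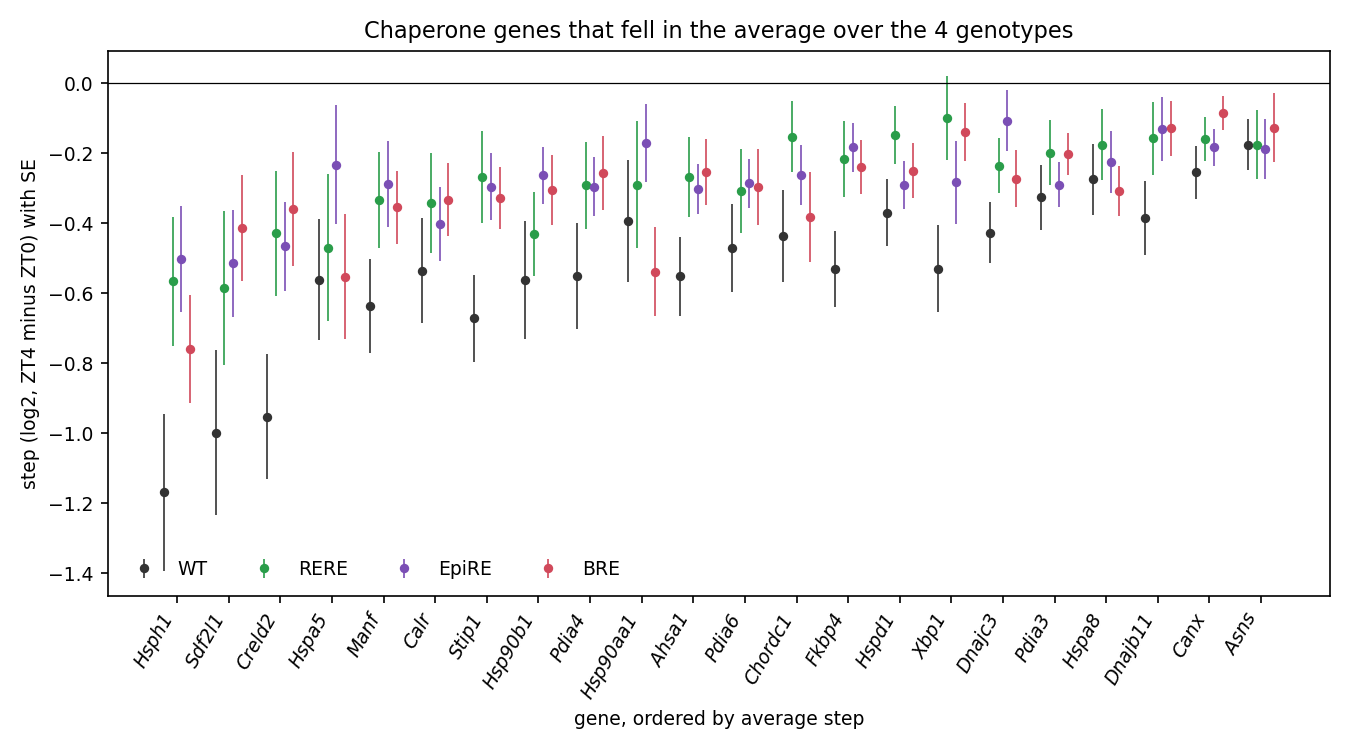
Step from ZT0 to ZT4 (log2, y axis) with its SE for the 22 chaperone and folding genes (x axis) that fell in the average over the genotypes; colours are genotypes. The genes were chosen on their average step; WT is the most negative for most of them.

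Further genes changed in the average over the 4 genotypes. Irf4, a transcription factor of immune cells and melanocytes that was picked after its values were seen, was at a low level but rose on average (1.02 ± 0.16, limma adjusted p = 1.9e-05). It read 1.26, 1.32, 1.14 and 1.12 RPKM, then 1.59, 3.02, 2.12 and 1.94 RPKM in WT and 0.768, 0.81, 1.08 and 0.722 RPKM, then 2.36, 2.14, 1.52 and 1.82 RPKM in BRE. Steps were 0.80, 0.96, 1.09 and 1.21 in WT, RERE, EpiRE and BRE, with groups overlapping only in EpiRE. Groups were separate for 11.5%, 3.43% and 4.96% of all tested genes in WT, RERE and BRE. No member of the T cell, Langerhans and melanocyte marker lists was called in any step. Tppp3 fell on average by 0.81 ± 0.13 log2 units (step -0.81, limma adjusted p = 2.51e-05). In glycolysis 4 of 18 genes fell (Pfkl, Pfkp, Pgam1, Ldha) and none rose, against 4.02% of all tested genes called lower and 2.91% higher. Cpt1a was higher on average by 0.28 ± 0.05 (limma adjusted p = 0.000222). Ribosomal proteins, oxidative phosphorylation, cholesterol synthesis, glucocorticoid-induced genes and keratinocyte differentiation had 0 members called in the average or in any genotype (limma), of 26, 28, 21, 14 and 29 tested.

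Mitotic genes had steps of opposite sign in WT and BRE. The list of G2 and mitosis holds 30 tested genes for entry into and passage through cell division. All 30 had negative steps in WT (median -0.52) and in RERE (median -0.50), 28 had positive steps in EpiRE (median 0.25) and all 30 in BRE (median 0.65), while 45% to 53.6% of all tested genes were positive. The 30 genes share their libraries, so these signs are not 30 independent observations. In WT 7 of the 30 fell (Bub1, Top2a, Nusap1, Ube2c, Kif11, Kif23, Prc1), against 0.854% of all tested genes. Each of these WT calls was lost when some single library was left out. In RERE, EpiRE and BRE 0 were called, and 2 of the 30, Nusap1 and Prc1, were among the 19 genes (0.162%) whose step was called different between BRE and WT. In bulk samples, fewer dividing cells and less RNA per cell cannot be told apart.

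The mean of the 30 genes in log2 RPKM was 3.44, 3.39, 3.41 and 3.09 at ZT0 and 2.28, 2.95, 3.23 and 2.85 at ZT4 in the WT mice. It was 2.66, 3.68, 3.26 and 3.4, then 2.46, 2.8, 2.86 and 2.88 in RERE, 1.82, 3.25, 2.82 and 2.47, then 2.84, 2.95, 2.39 and 3.21 in EpiRE, and 2.26, 2.3, 2.21 and 3.04, then 3.45, 3.13, 2.81 and 3.03 in BRE. The ranges at ZT0 and ZT4 overlapped in every genotype, in BRE through replicate 4 at ZT0. Replication genes of S phase, 32 tested, had 0 members called in any step, with a median of -0.19 in WT and 0.08 in BRE.

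Nusap1, a spindle protein (ENSMUSG00000027306, mm10 chr2:119618298-119651244), read 14.3, 13.3, 12.9 and 10.3 RPKM, then 4.55, 8.73, 9.42 and 7.59 RPKM in WT, where it fell 1.73-fold (limma adjusted p = 0.0445). In BRE it read 5.22, 5.89, 4.37 and 9.49 RPKM, then 14.1, 10.3, 8.28 and 9.37 RPKM (0.79 ± 0.26, limma adjusted p = 0.44), and the difference from WT was 1.58 ± 0.34 (limma adjusted p = 0.0453). Kif4, a chromosome-binding motor of mitosis outside the list (ENSMUSG00000034311, mm10 chrX:100625737-100727214), read 6.07, 5.92, 5.91 and 5.19 RPKM, then 2.69, 4.64, 4.3 and 3.94 RPKM in WT and 3.06, 2.94, 3.19 and 4.88 RPKM, then 6.9, 5.53, 4.59 and 4.65 RPKM in BRE. Its difference was 1.23 ± 0.23 (limma adjusted p = 0.00832). Top2a, the DNA topoisomerase of dividing cells, fell 1.68-fold in WT (limma adjusted p = 0.0439), and its difference of 1.36 ± 0.34 missed the threshold (limma adjusted p = 0.0702).

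The other genes with a BRE minus WT difference were the clock genes Nr1d1, Dbp, Tef, Cry1 and Cry2, Sectm1b, Melk, a kinase of dividing cells, Sapcd2, Hn1, Leo1, a subunit of a transcription elongation complex, and 6 replication-dependent H2A histone genes (Hist1h2ac, Hist1h2ad, Hist1h2ag, Hist1h2ah, Hist1h2an, Hist1h2ao). Of the 19, 14 differences were positive (0.12% of tested genes) and 5 negative (0.0427%), and with median-of-ratios scaling 39 and 6. The histone differences lay between 1.89 and 2.2, but these genes are near-identical copies whose reads could be shared or split, so they are uncertain and are not 6 independent observations. The BRE minus WT count moved with single mice, from 4 without WT ZT4 replicate 1 or BRE ZT4 replicate 1 to 113 without BRE ZT0 replicate 4. The 4 genes that kept their call whichever of the 16 libraries was left out were Nr1d1, Dbp, Tef and Cry1, and none of the mitotic genes did.

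**Figure D4:**
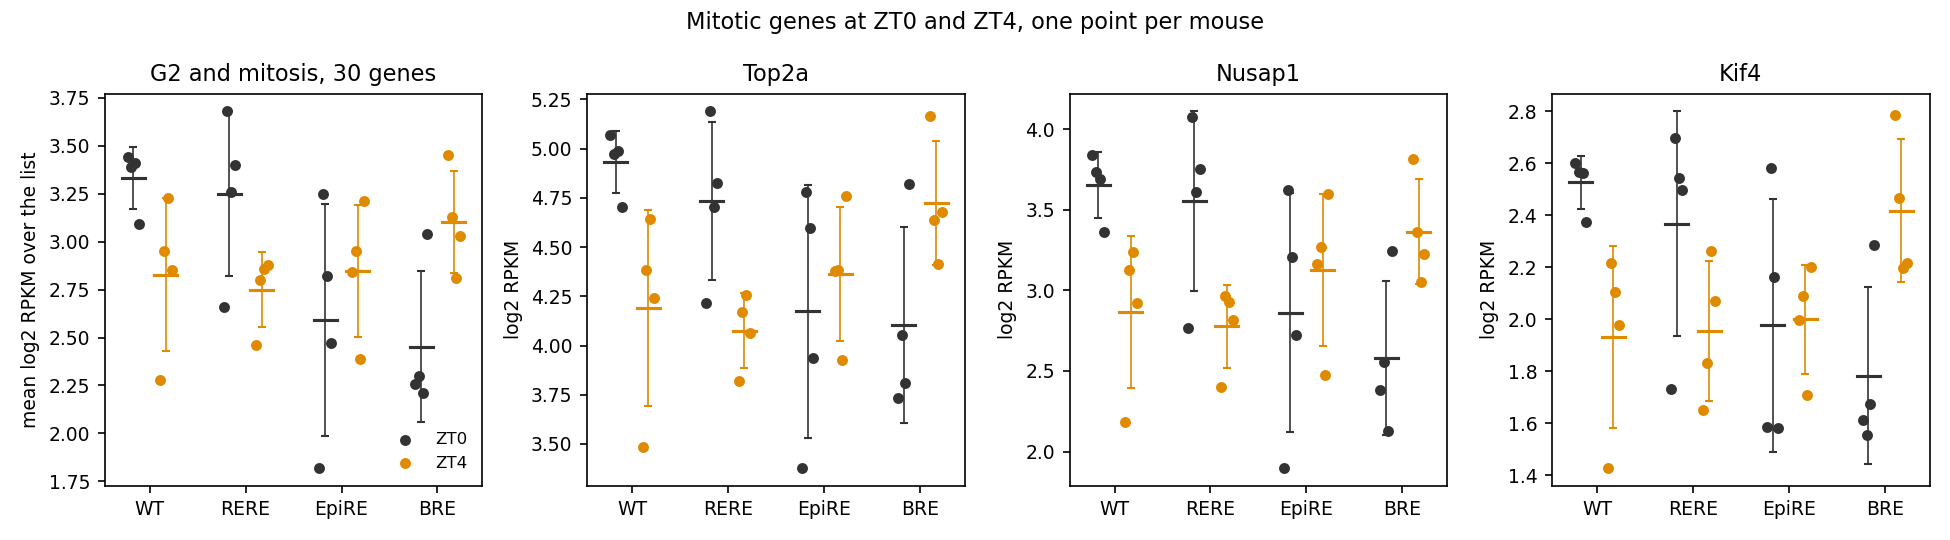
Mean log2 RPKM over the 30 genes of the G2 and mitosis list (left) and log2 RPKM of Top2a, Nusap1 and Kif4 (y axes) at ZT0 (dark) and ZT4 (orange) in the 4 genotypes (x axes); points are mice, lines means and bars 1 SD (n = 4). The means are lower at ZT4 in WT and RERE and higher in BRE, and a single BRE mouse at ZT0 (3.04) stands among the ZT4 mice.

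In each genotype some other intervals of the day, though not all of them in WT, EpiRE and BRE, held more called genes than this one. Of the 6 consecutive 4 h intervals, WT had 216 called genes in this one (1.85%), 254 (2.17%) from ZT4 to ZT8, 1007 (8.6%) from ZT8 to ZT12 and 1906 (16.3%) from ZT12 to ZT16. The WT counts were 84 (0.718%) from ZT16 to ZT20 and 336 (2.87%) from ZT20 to ZT0. RERE had 7 in this interval, 279 (2.38%) from ZT4 to ZT8 and 18 to 73 (0.154% to 0.624%) in the others. EpiRE had 0 in this interval, at most 9 (0.0769%) in the next 4 and 176 (1.5%) from ZT20 to ZT0. BRE had 0 in this interval, 204 (1.74%) from ZT12 to ZT16 and 583 (4.98%) from ZT16 to ZT20. Adjacent intervals share the mice of the time between them, and differences between these counts were not tested.

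**Figure D5:**
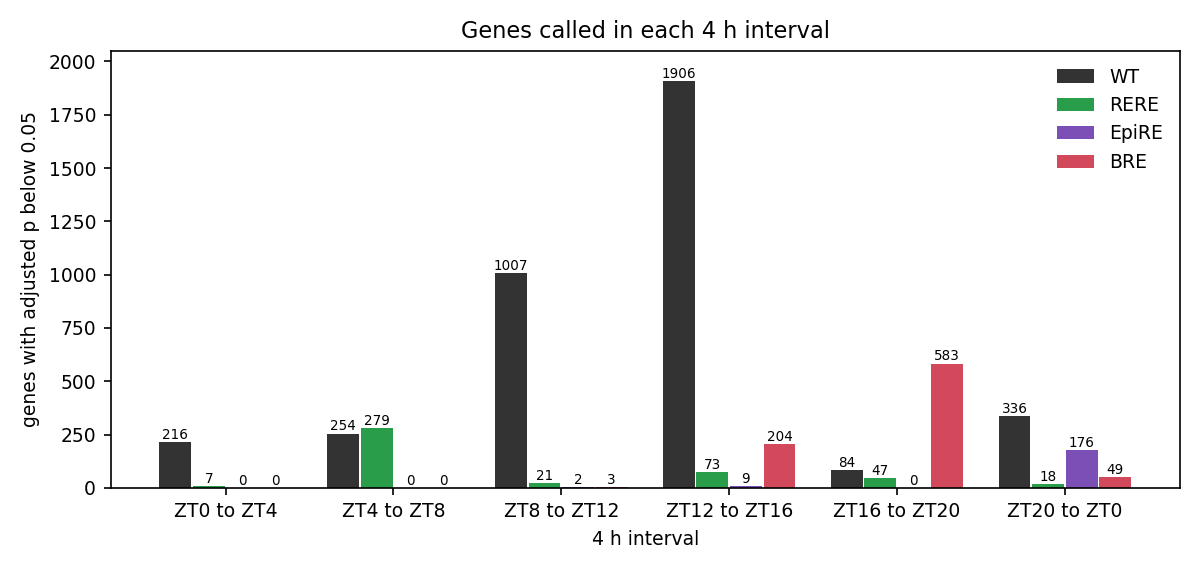
Number of genes with a limma adjusted p below 0.05 (y axis) in each 4 h interval of the day (x axis), by genotype (bar colour), of 11705 tested. The first interval holds 216 genes in WT, 7 in RERE and 0 in EpiRE and BRE.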

How the data were processed

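RNA-seq of mouse epidermis was analysed in 32 libraries, 4 mice for each of 2 times in 4 genotypes, from the 96 of the series. The submitters' processing notes name Trimmomatic 0.36, HISAT2 2.2.1, SAMtools 1.3.1, featureCounts 1.6.0, edgeR (version not given in the sources used here) and mm10. The authors deposited 1 table of log2 values per genotype. From their values, these are log2 RPKM with a prior count added; the unit is not stated in the labels. The prior compresses low values, and depth was estimated from the value that 0 reads take. The tables were normalized apart, so genotypes were tested against each other by their steps only, in which an offset of a table cancels. Where levels of genotypes are set side by side, such an offset does not cancel. The deposited JTK q-value (a test for 24 h rhythms) covers all 6 times, including these libraries: 144 of the 216 genes called in WT have a q below 0.05 in the authors' deposited table.

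The test took in 11705 of 22384 genes, those averaging 1 RPKM or more that were not at their floor in at least 48 of the 96 libraries. Steps, their differences and their average were fitted with limma 3.58.1 (R 4.3.3, trended empirical Bayes, two-sided, all 24 libraries of a genotype; 96 for the average), with Benjamini-Hochberg adjustment over all tested genes and a threshold of 0.05. The labels call the 4 mice of a group biological replicates. The tests weigh a step against the spread between mice of the same genotype and time. This spread was pooled over the 24 libraries of a genotype, 48 for a difference and 96 for the average. In fits over several genotypes, a shared estimate covers genotypes whose own spread can differ. No batch or date is given in the labels. Alternatives were other filters, scaling, pseudocount, libraries in the fit, trend, a replicate block and leaving out each library. Steps were tested on simulated data first. Gene positions are those of the GENCODE M21 annotation of mm10, and sequences are RefSeq's.

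Named genes are all members of the clock lists, for each step the 10 largest called rises and falls at a mean of at least 10 RPKM, for each difference the 6 smallest adjusted p-values (ties broken by unadjusted p), and up to 4 members of each list, plus any needed to state its result. Some genes that the rule selects are not reported here. Genes outside this rule are said to be so or come from complete counts of 5 or fewer, of calls kept without any library, or of called differences. Lists, genes and tests were chosen with earlier results of these data known.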

Additional observations from a re-analysis of the deposited data

Results flagged for a closer look

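In 232 groups of 4 mice (29 genes and list means), 15 held a mouse far from the other 3 (6.47%, where chance gives about 1 in 20), measured as the gap to the nearest mouse over the range of the group. BRE ZT0 replicate 4 stood high for Prc1 (0.957), Kif4 (0.837) and the mean of the G2 and mitosis list (0.898), and WT ZT0 replicate 4 stood low for that mean (0.85). BRE ZT4 replicate 3 stood high for Nr1d1 (0.911) and for the mean of the endoplasmic reticulum chaperones (0.951), and EpiRE ZT4 replicate 3 for the mean of the heat shock chaperones (0.918). RERE ZT0 replicate 1 and RERE ZT4 replicate 2 stood high for Nr1d2 (0.894 and 0.879), and EpiRE ZT0 replicate 2 for Cry1 (0.844). In BRE at ZT4, replicate 2 was low for Hsph1 (0.859) and replicate 1 high for Hsp90b1 (0.933). In RERE, ZT4 replicate 4 was low for Tppp3 (0.832), ZT4 replicate 1 low for Prc1 (0.856) and ZT0 replicate 2 high for Leo1 (0.92).

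The step differed between genotypes, by the test of the difference itself, in 27 instances given here. Between EpiRE and WT these were Cry1 (1.81) and Nr1d1 (-2.31). Between BRE and WT the clock genes were Dbp (-2.88), Nr1d1 (-2.0), Tef (-1.32), Cry1 (1.24) and Cry2 (-0.62). The others between BRE and WT were Sapcd2 (1.76), Nusap1 (1.58), Melk (1.45), Kif4 (1.23), Prc1 (0.91), Hn1 (0.71), Leo1 (0.55) and Sectm1b (-1.43), and the histone genes Hist1h2ao (2.2), Hist1h2ag (2.06), Hist1h2ac (1.95), Hist1h2an (1.9), Hist1h2ad (1.9) and Hist1h2ah (1.89). Between RERE and EpiRE they were Nr1d1 (2.39) and Cry1 (-1.6). Between RERE and BRE they were Dbp (2.94), Nr1d1 (2.08), Tef (1.16) and Cry1 (-1.03).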

How the results depend on the processing

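Of 151 calls of named genes none changed direction in any alternative, but 60 were lost without a filter, 48 with only the ZT0 and ZT4 libraries, 25 with genes at their floor kept, 18 without the trend, 11 with the replicate block and 73 at least once when single libraries were left out. Without a filter on low values (22384 genes) the calls were 46 in WT, 1 in EpiRE and 5 for BRE minus WT. With only the ZT0 and ZT4 libraries in the fit they were 82 in WT, 4 in RERE and 7 for BRE minus WT. BRE minus WT gave 45 calls with median-of-ratios scaling, 35 with log2(RPKM + 1), 7 without the mean-variance trend and 7 with genes at their floor kept, an alternative chosen after seeing the data that also gave 1 in EpiRE. RERE minus BRE gave 7 with median-of-ratios scaling. The cause of these shifts was not tested. Leaving out single libraries gave 17 to 180 calls in WT (74 and 75 without ZT0 replicates 1 and 4; 121 and 102 without ZT4 replicates 3 and 4), 5 to 10 in RERE, 0 in EpiRE, BRE and RERE minus WT, 2 to 6 for EpiRE minus WT (6 without EpiRE ZT0 replicate 2), 4 to 113 for BRE minus WT (74 without WT ZT4 replicate 3; 47 without BRE ZT4 replicate 3), 2 to 5 for RERE minus EpiRE (5 without EpiRE ZT4 replicate 3), 4 to 48 for RERE minus BRE (48 without RERE ZT0 replicate 1; 40 without BRE ZT0 replicate 4), 0 to 1 for EpiRE minus BRE, 558 to 962 for the average and 5 to 29 for any genotype difference (29 without BRE ZT0 replicate 4; 21 without RERE ZT0 replicate 1). With the replicate number as a block the calls were 175 in WT, 6 in RERE, 22 for BRE minus WT and 770 for the average. Same-numbered mice of ZT0 and ZT4 had correlations from -0.335 to 0.388, all negative in WT and EpiRE. For RERE replicates 3 and 4 (0.388 and 0.206) and BRE replicate 4 (0.333) they exceeded those with other numbers. Whether the numbers pair mice was not tested.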
